A study of Homo sapiens with 3 samples.

Results

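Bone morphogenetic proteins (BMPs) are secreted ligands of the TGF-beta superfamily that bind paired serine/threonine kinase receptors, which phosphorylate SMAD1, SMAD5 and SMAD9 so that they enter the nucleus with SMAD4. The ID genes are among the best known direct targets of this route: they encode helix-loop-helix proteins that lack a DNA-binding region and hold basic helix-loop-helix factors away from E-box sequences. Secreted antagonists trap the ligands outside the cell, gremlin 1 (GREM1) mainly BMP2, BMP4 and BMP7, and follistatin (FST) mainly activins and, with lower affinity, several BMPs. The 9 genes described here are 3 ligand genes (BMP2, BMP4 and BMP7), 2 antagonist genes (GREM1 and FST) and 4 ID genes (ID1 to ID4), out of 19775 genes on the array. They were chosen by name, with earlier results of these data known. Every probe set whose platform annotation gives only 1 of these symbols was taken, which came to 21 of 54675 probe sets.

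RNA was measured in 3 lines of HT1080, an established human fibrosarcoma line, with 1 array per line. RECK/4NQ cells were stably transfected with a vector encoding a RECK mutant whose 4 N-glycosylated asparagines (Asn86, Asn200, Asn297 and Asn352) were changed to glutamines, RECK cells with the vector for unaltered RECK, and Zeo cells are the mock transfectant. RECK is a membrane-anchored inhibitor of matrix metalloproteinases. All lines were kept in medium with 10% fetal calf serum, which itself carries ligands of the TGF-beta superfamily, and 50 µg/mL of the selection drug Zeocin. Whether a line is 1 clone or a pool is not stated in the labels, and with 1 array per line there is no replicate spread, so no difference below has a test, and the transfected gene and other differences between the lines cannot be told apart. In bulk RNA, fewer cells expressing a gene and less RNA per cell cannot be told apart either.

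The values are MAS5 signals, linear intensities with 1 value per probe set and array. The floor was 12.3, which is the 40th percentile over the 3 arrays. Weaker signals were treated as not measurable and raised to it before ratios were taken, and a fold against such a signal is written "at least". Counts of genes use the brightest probe set of each, with 2-fold as the limit for higher or lower. As a scale of error, each log2 ratio was set against the 1000 genes nearest in level, whose robust spread includes real differences as well as noise. The median log2 ratio over the 14282 genes whose mean level reached the floor was -0.12 for RECK/4NQ over Zeo, -0.19 for RECK over Zeo and 0.06 for RECK/4NQ over RECK. RECK itself had signals of 442 in RECK/4NQ, 387 in RECK and 264 in Zeo by the brightest of its 5 probe sets. Of 6 mesenchymal markers 5 reached the floor on every array (VIM, FN1, CD44, ITGB1 and SPARC), while the sixth, NT5E, was above it only in Zeo, at 14.2. None of 4 epithelial markers was above the floor on all arrays, while 1 of 3 endothelial markers was (PECAM1, at 72.4 in RECK/4NQ, 70.3 in RECK and 108 in Zeo), as were 1 of 2 leukocyte markers (CD3E, at most 48.7) and 1 of 2 hepatocyte markers (ALB, at most 22.3).

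The promoters of FST, which had the widest range among the 6 genes that reached the floor on every array, and of ID1 and ID3, the targets read most firmly above the floor, are shown as the 250 bases before the start site from RefSeq (GRCh38.p14). Capitals mark GGCGCC (a SMAD1/5 core), GTCTG or its complement CAGAC (a short SMAD4 motif) and CANNTG (the E-box that ID proteins' partners bind), each searched on both strands.
FST, chr5:53480379-53480628, plus strand: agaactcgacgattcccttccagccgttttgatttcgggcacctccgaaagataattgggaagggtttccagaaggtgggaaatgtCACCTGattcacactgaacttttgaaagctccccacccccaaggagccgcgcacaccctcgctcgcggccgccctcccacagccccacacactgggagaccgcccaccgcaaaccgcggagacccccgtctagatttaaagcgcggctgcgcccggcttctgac
ID1, chr20:31605039-31605288, plus strand: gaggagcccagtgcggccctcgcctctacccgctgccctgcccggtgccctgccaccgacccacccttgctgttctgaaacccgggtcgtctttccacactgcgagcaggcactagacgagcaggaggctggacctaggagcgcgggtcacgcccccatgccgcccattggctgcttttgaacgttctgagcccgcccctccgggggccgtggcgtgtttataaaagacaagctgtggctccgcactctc
ID3, chr1:23559502-23559751, minus strand: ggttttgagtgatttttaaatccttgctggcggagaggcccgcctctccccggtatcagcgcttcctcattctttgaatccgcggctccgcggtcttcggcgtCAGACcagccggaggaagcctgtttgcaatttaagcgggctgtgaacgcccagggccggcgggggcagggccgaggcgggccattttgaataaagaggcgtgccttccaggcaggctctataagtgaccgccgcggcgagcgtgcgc
The FST window held 1 E-box, starting 164 bases before the start site, and no SMAD motif. The ID3 window held 1 copy of the SMAD4 motif, starting 147 bases before the start, and the ID1 window held none of these motifs. Among all 35116 promoter windows of this length, 16.4% held GGCGCC, 38.0% GTCTG and 61.8% CANNTG, and 1.65% held TGACGTCA, the cyclic AMP response element, which was in none of the member windows. Of the 9 genes, 7 had a promoter sequence, of which 2 held GGCGCC, 4 held GTCTG and 4 held CANNTG in at least 1 window. These counts are per gene, while the shares above are per window. BMP4 and GREM1, the 2 genes with GGCGCC, had more than 1 window each, so the counts and shares are not alike. In mouse Id1 the BMP-responsive elements are known to lie upstream of a window of this length, and a match or its absence here describes these letters only.

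Follistatin transcripts differed most among the 6 genes measured on every array, and in the same order by every probe set. For BMP2, below the floor in Zeo, only a bound is known, which passes the FST range when the floor is lowered to the 20th percentile. The brightest FST probe set, 204948_s_at, had signals of 214 in RECK/4NQ, 365 in RECK and 629 in Zeo. Probe set 226847_at had 86.8 in RECK/4NQ, 220 in RECK and 445 in Zeo. Probe set 207345_at had 37.6 in RECK/4NQ, 93.7 in RECK and 172 in Zeo. RECK/4NQ was thus the lowest array, RECK lay between and Zeo was the highest for all 3, each of them above the floor on every array. By the brightest probe set FST was 2.93-fold lower in RECK/4NQ than in Zeo, and over the 3 probe sets the decrease ranged from 2.93-fold to 5.13-fold (mean log2 ratio -2.03 ± 0.43, SD over 3 probe sets, which are not replicates). In RECK it was 1.72-fold to 2.02-fold lower than in Zeo (-0.89 ± 0.12), with only 226847_at past 2-fold. In RECK/4NQ it was 1.70-fold to 2.53-fold lower than in RECK (-1.14 ± 0.32), with 226847_at and 207345_at past 2-fold and the brightest, at 1.70-fold, not.

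**Figure D1:**
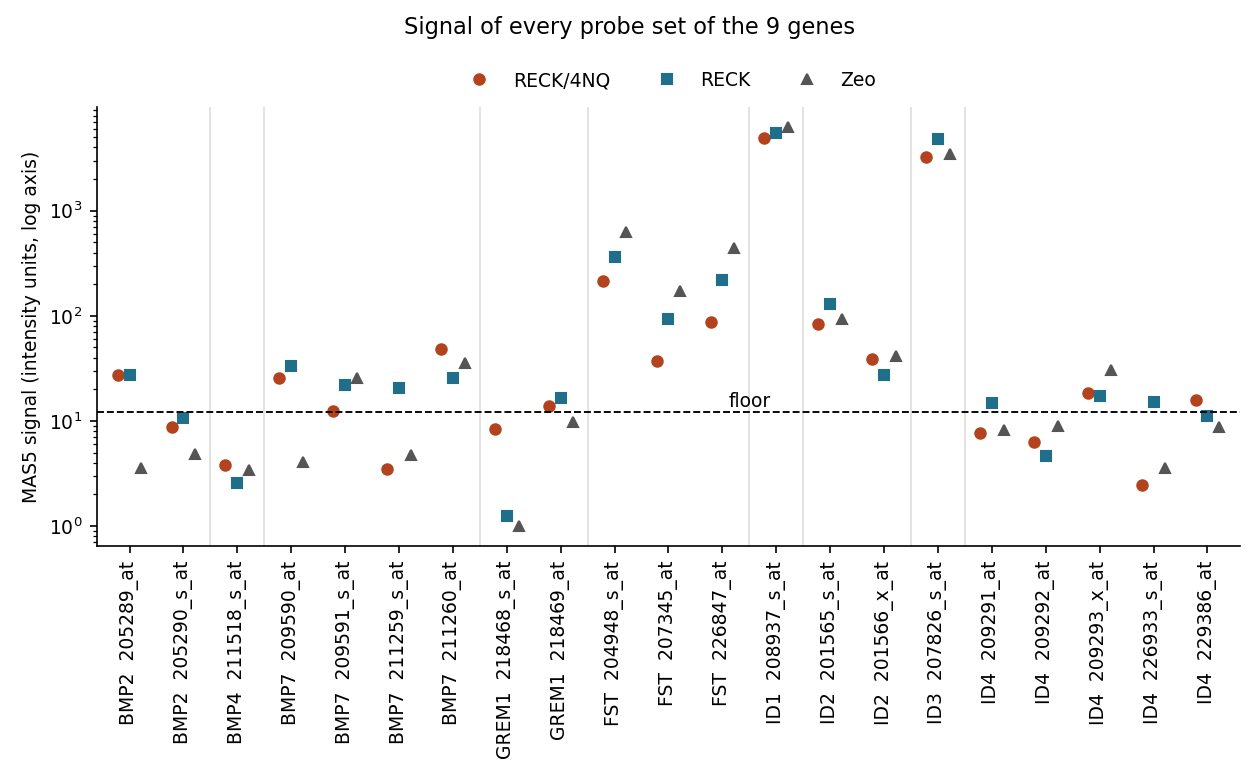
MAS5 signal (log axis) of all 21 probe sets of the 9 genes on the RECK/4NQ (circles), RECK (squares) and Zeo (triangles) arrays, with the floor of 12.3 as a dashed line. For each of the 3 FST probe sets RECK/4NQ is lowest, RECK between and Zeo highest, ID1 and ID3 lie far above the floor on every array, and most BMP, GREM1 and ID4 points lie near or under the floor.

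Set against genes of like level, the FST ratio of RECK/4NQ over Zeo lay at -4.20 spreads from their median, and 4 of the 1000 nearest genes had a lower one. For RECK over Zeo it lay at -1.35 spreads, with 87 of 1000 lower, and for RECK/4NQ over RECK at -2.02 spreads, with 48 lower. The first of these ratios therefore stood outside most of the spread of its neighbours in level, and the ratio of RECK over Zeo did not. Relative to the median of all genes, the FST log2 ratios were -1.43 for RECK/4NQ over Zeo, -0.59 for RECK over Zeo and -0.83 for RECK/4NQ over RECK. The 10 measured genes nearest to FST on its chromosome had median log2 ratios of -0.33, -0.21 and -0.04 in these comparisons, and less these medians the FST ratios were -1.22, -0.57 and -0.73. The 3 genes whose pair of log2 ratios to Zeo was nearest to that of FST, by Euclidean distance among 10718 genes over the 3 arrays, were RNF138 (a ubiquitin ligase, at a distance of 0.015), C16orf78 (0.016) and RAB6B (a small GTPase of vesicle traffic, 0.026). RNF138 had signals of 46.5 in RECK/4NQ, 79.7 in RECK and 136 in Zeo.

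**Figure D2:**
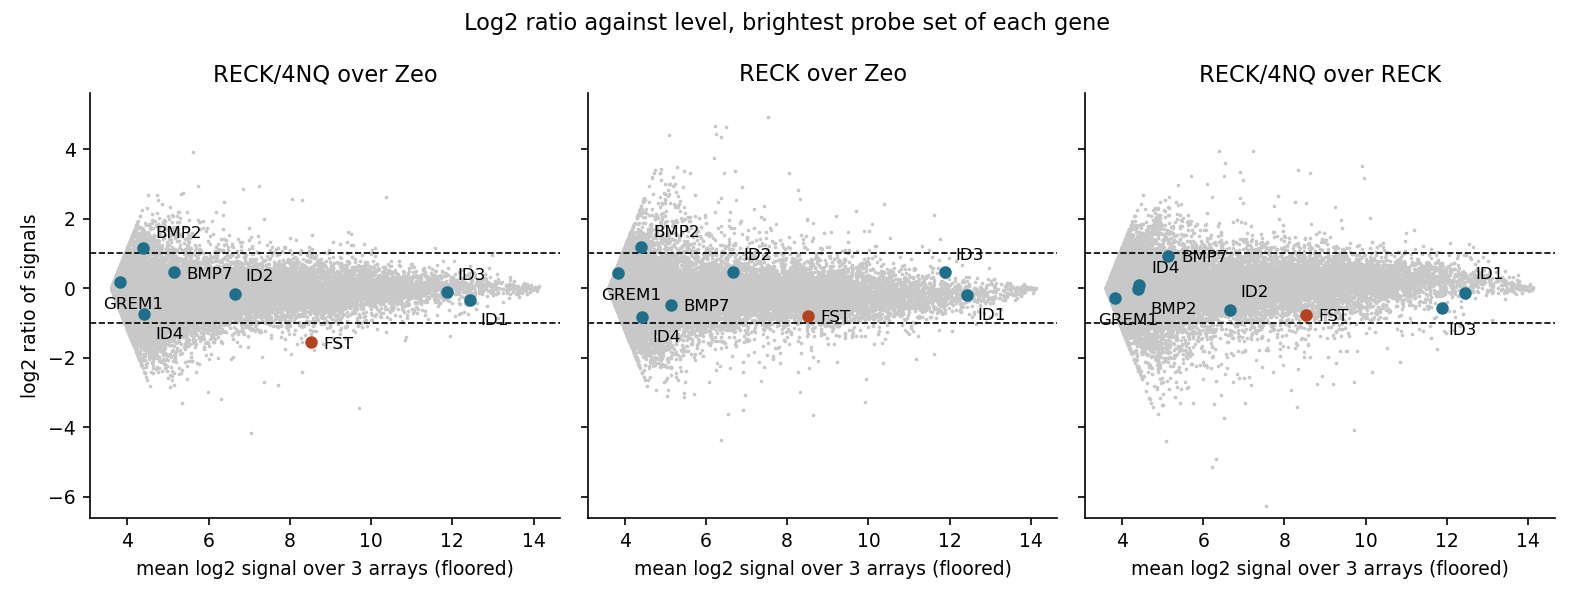
Log2 ratio of signals against mean log2 signal for the brightest probe set of every gene (grey), with FST in red and 7 other genes in blue, and dashed lines at 2-fold. BMP4, below the floor on all arrays, is not drawn. FST lies at -1.55 in RECK/4NQ over Zeo, under most genes of its level, while ID1 and ID3 stay inside the dashed lines in each comparison.

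GREM1, the other antagonist, was at the limit of measurement. Its brighter probe set had signals of 13.9 in RECK/4NQ, 16.7 in RECK and 9.84 in Zeo, the last below the floor. The other probe set, 218468_s_at, was below the floor on all arrays, at 8.41 in RECK/4NQ, 1.24 in RECK and 1.00 in Zeo. No GREM1 fold passed 2-fold.

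The ligand genes gave low signals. BMP2 had signals of 27.3 in RECK/4NQ and 27.7 in RECK by probe set 205289_at, against 3.56 in Zeo, which is below the floor. BMP2 was therefore at least 2.23-fold higher in RECK/4NQ and at least 2.26-fold higher in RECK, each against Zeo, and RECK/4NQ and RECK differed by 1.01-fold. Both bounds are set by the floor and share the Zeo array. The second BMP2 probe set was below the floor on all arrays, at 8.85 in RECK/4NQ, 10.8 in RECK and 4.82 in Zeo. With the probe sets averaged, or with the floor at the 60th percentile, BMP2 was not past 2-fold in either comparison.

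BMP4 was below the floor on all arrays, at 3.84 in RECK/4NQ, 2.55 in RECK and 3.38 in Zeo, and has no fold. BMP7, known from kidney and bone development, was read by 4 probe sets that did not move together. The brightest, 211260_at, had signals of 48.7 in RECK/4NQ, 25.6 in RECK and 35.4 in Zeo. Probe set 209590_at had 25.6 in RECK/4NQ and 33.5 in RECK against 4.09 in Zeo, at least 2.09-fold and at least 2.74-fold higher. Probe set 209591_s_at went the other way, with 12.3 in RECK/4NQ, 21.8 in RECK and 25.4 in Zeo, and 211259_s_at was above the floor only in RECK, at 20.6. The BMP7 signals thus give no common direction.

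Among the ID genes, ID1 and ID3 were read far above the floor and none of the 4 differed 2-fold between any arrays. ID1, which has 1 probe set, had signals of 4926 in RECK/4NQ, 5465 in RECK and 6280 in Zeo. It was 1.27-fold lower in RECK/4NQ than in Zeo, 1.15-fold lower in RECK than in Zeo and 1.11-fold lower in RECK/4NQ than in RECK. The ID1 order of the arrays was that of FST, with much smaller steps. Against genes of like level its ratio of RECK/4NQ over Zeo lay at -1.78 spreads from their median, with 79 of 1000 lower, and that of RECK over Zeo at -0.096 spreads.

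ID3, also read by 1 probe set, had signals of 3220 in RECK/4NQ, 4773 in RECK and 3475 in Zeo, so that RECK alone stood higher. It was 1.08-fold lower in RECK/4NQ than in Zeo, 1.37-fold higher in RECK than in Zeo and 1.48-fold lower in RECK/4NQ than in RECK. The ID3 ratio of RECK over Zeo lay 2.29 spreads above the median of genes of like level, with 36 of 1000 higher, and that of RECK/4NQ over RECK at -2.48 spreads, with 40 lower. After each array was centred on its median, the log2 ratio of RECK/4NQ over Zeo was 0.019 in place of -0.11, so its sign depends on the scaling.

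ID2 had signals of 84.5 in RECK/4NQ, 129 in RECK and 94.1 in Zeo by its brighter probe set, which is 1.37-fold higher in RECK than in Zeo and 1.53-fold lower in RECK/4NQ than in RECK. Its dimmer probe set, 201566_x_at, had 39.1 in RECK/4NQ, 27.6 in RECK and 41.2 in Zeo, so that RECK was its lowest array and not its highest. ID4 had 18.4 in RECK/4NQ, 17.3 in RECK and 30.8 in Zeo by its brightest probe set, 209293_x_at, or 1.68-fold and 1.77-fold lower than in Zeo. The other 4 ID4 probe sets were each at or above the floor on at most 1 array, and on those arrays reached no more than 15.9, so ID4 has no second reading of this difference.

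As counts, 1 of the 9 genes (BMP2) was higher and 1 (FST) lower in RECK/4NQ than in Zeo, with 7 not past 2-fold, where 2.81% of all 19775 genes were higher and 7.13% lower. In RECK against Zeo 1 was higher (BMP2) and 0 were lower, beside 4.03% and 6.7% of all genes. In RECK/4NQ against RECK 0 were higher and 0 lower, beside 4.47% and 5.76%. By probe set, of 21, 2 were higher and 4 lower in RECK/4NQ than in Zeo (2.95% and 6.48% of 41091 probe sets), 2 higher and 1 lower in RECK than in Zeo (3.64% and 6.32%), and 0 higher and 2 lower in RECK/4NQ than in RECK (4.54% and 5.09%). Only 10 of the 21 probe sets reached the floor on every array. For the 8 genes whose mean level reached the floor the median log2 ratio was -0.13 for RECK/4NQ over Zeo, 0.12 for RECK over Zeo and -0.21 for RECK/4NQ over RECK. The FST log2 ratios in these comparisons, -1.55, -0.78 and -0.77, were below each of these medians. FST is itself 1 of these 8 genes and was singled out for its range on these arrays, so this adds no support.

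Of 78 other genes of the pathway in 6 lists, 1 was higher and 6 lower in RECK/4NQ than Zeo, 6 higher and 4 lower in RECK than Zeo, and 0 higher and 4 lower in RECK/4NQ than in RECK. As shares these were 1.28% higher and 7.69% lower, beside 2.81% and 7.13% of all genes, then 7.69% and 5.13%, beside 4.03% and 6.7%, and then 0% and 5.13%, beside 4.47% and 5.76%. The lower shares were thus near those of all genes. Their median log2 ratios were -0.14, 0.019 and -0.13. The antagonists and modulators held 4 of the 6 genes that were lower in RECK/4NQ than in Zeo. Of the 17 genes in this list 4 were lower, 0 higher and 13 not past 2-fold, beside 7.13% of all genes lower and 2.81% higher. The median log2 ratio of this list was -0.30 against -0.12 for all genes. The lists were chosen with earlier results of these data known, so these counts are no independent result and were not tested. Noggin (NOG), which binds BMP2 and BMP4, had signals of 256 in RECK/4NQ, 398 in RECK and 544 in Zeo, the same order of arrays as FST, and was 2.12-fold lower in RECK/4NQ than in Zeo. CRIM1, a transmembrane protein with chordin-type repeats, had 121 in RECK/4NQ, 323 in RECK and 291 in Zeo, and its other 2 probe sets had the same order. TWSG1, a partner of chordin, had 18.7 in RECK/4NQ, 26.5 in RECK and 43.3 in Zeo. Chordin itself (CHRD) had 3.80 in RECK/4NQ, below the floor, 14.0 in RECK and 35.6 in Zeo by its brightest probe set. Its other one had 22.4 in RECK/4NQ and, below the floor, 5.62 in RECK and 11.6 in Zeo. Set against genes of like level, the ratio of RECK/4NQ over Zeo lay at -2.89 spreads for NOG and -3.23 for CRIM1. It lay at only -1.22 spreads for TWSG1 and -1.27 for CHRD, where the ratio is a bound. Of these 4 genes only NOG and CRIM1 stood outside most of the spread of their neighbours in level. The 4 were picked by this same ratio, so a large distance follows in part from the choice.

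In RECK against Zeo, 1 of these 17 was higher and 1 lower (CHRD), beside 4.03% and 6.7% of all genes. The higher one was FSTL3, a follistatin-like binder of activin, with 463 in RECK and 168 in Zeo, and 238 in RECK/4NQ. The FSTL3 order was not that of FST, since Zeo was its lowest array. FSTL3 was 2.76-fold higher in RECK than in Zeo, at 3.93 spreads from the median of genes of like level. It thus stood outside most of the spread of its neighbours in level, on the higher side. CHRD lay at only -1.21 spreads in this comparison. Both genes were picked by this same ratio. In RECK/4NQ against RECK, 0 were higher and 1 was lower (CRIM1, 2.66-fold), beside 4.47% and 5.76% of all genes. The median log2 ratio of the list was -0.50 against 0.06 for all genes.

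**Figure D3:**
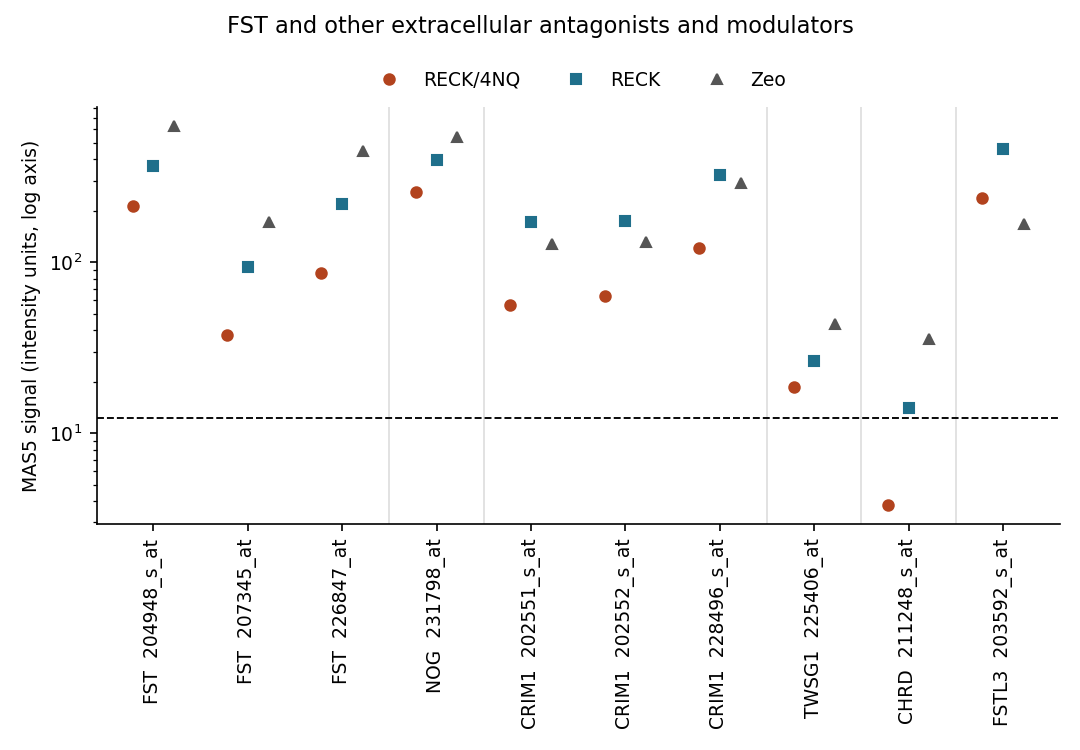
MAS5 signal (log axis) of the FST probe sets, all CRIM1 probe sets and the brightest probe set of NOG, TWSG1, CHRD and FSTL3 on the RECK/4NQ (circles), RECK (squares) and Zeo (triangles) arrays, with the floor of 12.3 as a dashed line. RECK/4NQ is the lowest array for each except FSTL3, where Zeo is lowest. NOG, CRIM1, TWSG1 and CHRD are drawn because they were past 2-fold lower in RECK/4NQ than in Zeo. That RECK/4NQ lies below Zeo for them follows from this choice. The CHRD probe set not drawn has RECK/4NQ highest.

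Among the 15 other BMP and GDF ligand genes, the activin subunit genes INHBA and INHBB were higher in RECK than in Zeo. In that comparison 4.03% of all genes were higher. INHBB had signals of 27.4 in RECK/4NQ, 60.2 in RECK and 22.3 in Zeo, so RECK stood above both other arrays. INHBA had 32.5 in RECK/4NQ, 46.3 in RECK and 22.7 in Zeo by its brightest probe set, and 210511_s_at had 1.95 in RECK/4NQ, 57.4 in RECK and 31.0 in Zeo. Its dimmest probe set, 204926_at, had 17.4 in RECK/4NQ and, below the floor, 7.41 in RECK and 10.3 in Zeo, with RECK lowest. GDF7 was the 1 ligand gene past 2-fold between RECK/4NQ and Zeo, with 41.3 in RECK/4NQ, 23.0 in RECK and 17.7 in Zeo. Of all genes 2.81% were higher and 7.13% lower there.

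The receptor genes gave mostly low or steady signals. ACVR1, a type I receptor for BMPs, had 285 in RECK/4NQ, 309 in RECK and 289 in Zeo, a range of at most 1.08-fold. BMPR1B had 10.6 in RECK/4NQ, below the floor, 24.3 in RECK and 18.4 in Zeo, and the type II receptor gene BMPR2 had 15.6 in RECK/4NQ, 25.5 in RECK and 17.2 in Zeo, while its other probe sets did not give 1 order. The co-receptor gene ENG was 2.07-fold lower in RECK/4NQ than in Zeo, with 606 in RECK/4NQ, 718 in RECK and 1252 in Zeo, and its second probe set had 166 in RECK/4NQ, 154 in RECK and 250 in Zeo. The decoy receptor gene BAMBI, which is also a target of the pathway, had 66.7 in RECK/4NQ, 428 in RECK and 41.7 in Zeo by its single probe set. BAMBI was the 1 of 11 receptor genes higher in RECK than in Zeo, 10.3-fold and at 7.37 spreads from genes of like level. It was also the 1 lower in RECK/4NQ than in RECK, 6.43-fold and at -5.47 spreads.

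Of 13 genes for SMADs and their regulators, none was past 2-fold between RECK/4NQ and Zeo by its brightest probe set. Of all genes, 2.81% were higher and 7.13% lower in that comparison. SMAD1 had signals of 50.2 in RECK/4NQ, 44.1 in RECK and 43.2 in Zeo by its brightest probe set. By 227798_at it had 42.7 in RECK/4NQ, 31.8 in RECK and 52.3 in Zeo, with Zeo highest. SMAD5 had 51.5 in RECK/4NQ, 58.0 in RECK and 57.3 in Zeo by its brightest probe set. Of its dimmer ones, 225219_at had 22.5 in RECK/4NQ, 13.6 in RECK and 45.5 in Zeo, and 225223_at had 21.9 in RECK/4NQ, 12.8 in RECK and 42.1 in Zeo, so that the SMAD5 probe sets do not give 1 reading. SMAD4 had 49.3 in RECK/4NQ, 33.8 in RECK and 41.3 in Zeo by its brightest probe set. By 235725_at it had 30.2 in RECK/4NQ, 29.5 in RECK and 48.3 in Zeo, with Zeo highest. By 202526_at it had 13.7 in RECK/4NQ, 14.3 in RECK and 14.1 in Zeo. The inhibitory SMADs, which are induced by the pathway they inhibit, lay close together by their brightest probe sets. SMAD6 had 232 in RECK/4NQ, 232 in RECK and 193 in Zeo, and SMAD7 had 178 in RECK/4NQ, 248 in RECK and 212 in Zeo. The dimmer SMAD6 probe set 213565_s_at had 51.8 in RECK/4NQ, 53.7 in RECK and 30.9 in Zeo. Probe set 209887_at had 16.3 in RECK/4NQ, 18.0 in RECK and, below the floor, 2.65 in Zeo. The last, 209886_s_at, was below the floor on all arrays. In RECK against Zeo 2 of the 13 genes were lower and 0 higher, beside 6.7% and 4.03% of all genes. SMAD9 had 15.4 in RECK and 32.5 in Zeo, at only -0.98 spreads from genes of like level. SMURF2, a ubiquitin ligase for receptors and SMADs, had 41.5 in RECK and 98.5 in Zeo, at -2.02 spreads. The dimmer SMURF2 probe set 230820_at had 21.3 in RECK and 27.6 in Zeo.

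Most of the 15 other target genes were not past 2-fold, and those that were lay on both sides. MSX1, a homeobox gene, was 3.04-fold lower in RECK than in Zeo, with 584 in RECK/4NQ, 326 in RECK and 991 in Zeo, and its second probe set had the same order. Its relative MSX2 was 2.33-fold higher in RECK than in Zeo, with 86.5 in RECK/4NQ, 139 in RECK and 59.4 in Zeo. GATA2, a zinc finger factor, was 3.96-fold lower in RECK/4NQ than in Zeo by its brightest probe set, with 62.4 in RECK/4NQ, 258 in RECK and 247 in Zeo, while probe set 207954_at had 69.8 in RECK/4NQ, 70.5 in RECK and 66.4 in Zeo. Of the 15 target genes 0 were higher and 1 lower in RECK/4NQ than in Zeo, 2 higher and 1 lower in RECK than in Zeo, and 0 higher and 2 lower in RECK/4NQ than in RECK. The shares of all genes were 2.81% and 7.13%, 4.03% and 6.7%, and 4.47% and 5.76% in these comparisons. BAMBI, given above, was 1 of the 2 target genes higher in RECK than in Zeo. It was also 1 of the 2 lower in RECK/4NQ than in RECK. Of 10 genes for helix-loop-helix partners of ID proteins, HAND1 alone passed 2-fold in 1 comparison, with 36.9 in RECK and, below the floor, 9.07 in Zeo, at least 3.01-fold higher in RECK.

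**Figure D4:**
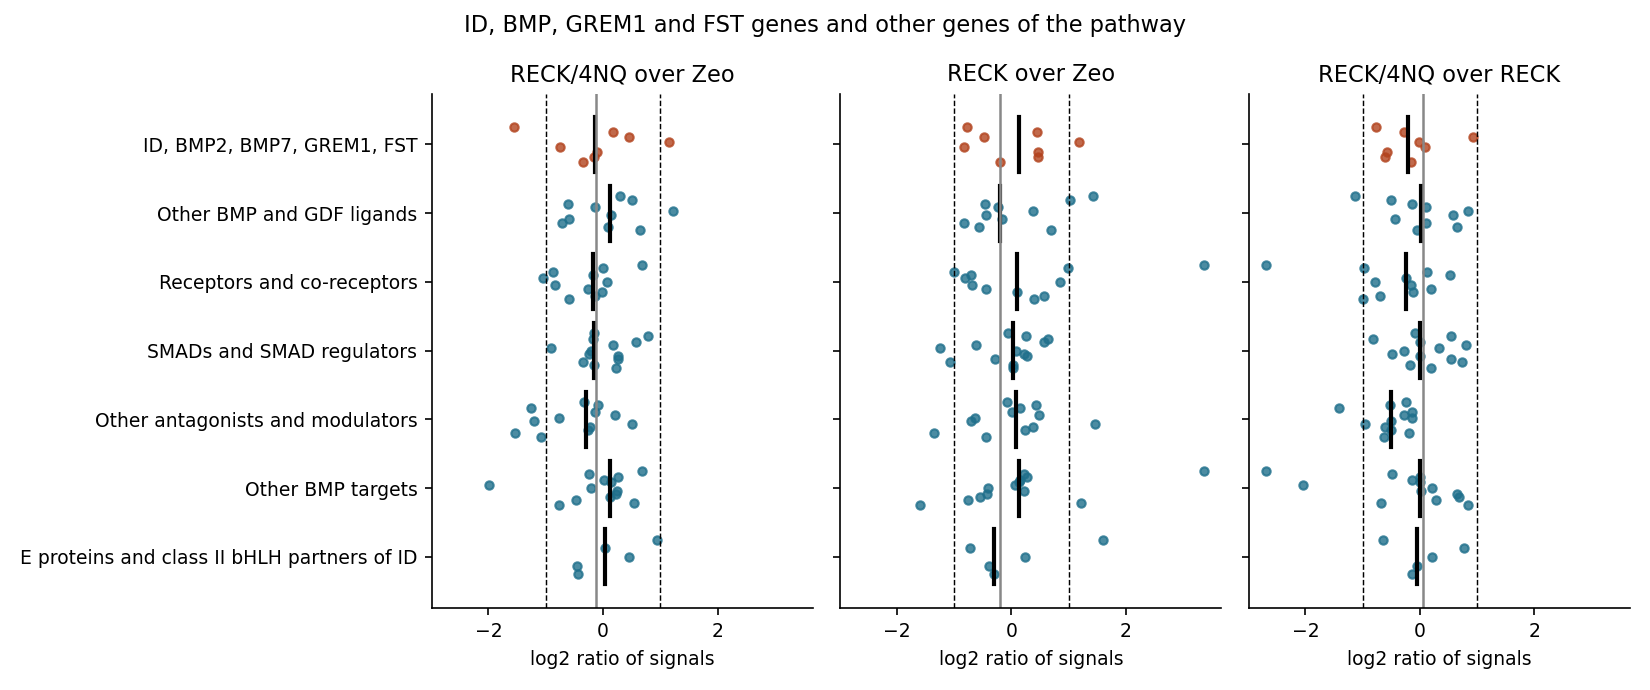
Log2 ratios of the 8 genes whose mean level reached the floor (red) and of the other pathway genes by list (blue) in 3 comparisons, with black bars at each list's median, a grey line at the median of all genes and dashed lines at 2-fold. The antagonist list has medians of -0.30 in RECK/4NQ over Zeo and -0.50 in RECK/4NQ over RECK, and 0.079 in RECK over Zeo.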

How the data were processed

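Total RNA from 3 cell lines was hybridised to 3 Affymetrix arrays. The deposited values are MAS5 intensities, linear signals per probe set, per the submitters' processing notes; no source used here states the MAS5 version, its scaling target or a genome build. Signals were used as deposited, and the number of arrays limits the precision.

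Genes were named only from the 41091 probe sets with 1 symbol in the platform annotation, with 41037 of them matching a current RefSeq gene. The call was 2-fold with both signals at or above the floor, or 1 below it and the other reaching 2 times the floor. It was tested on simulated data with changes planted only in genes well above the floor. The recovery of changes near the floor was therefore not tested. Neighbouring genes were the 5 on each side in RefSeq order. Python 3.11.15, numpy 2.4.6 and pandas 2.3.3 were used.

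The genes and pathway lists were chosen with earlier results of these data known. Named genes were the 9 genes, up to 6 genes per list past 2-fold, fixed receptors and SMADs, and the 3 nearest in pattern to the gene of widest range. Protein sequences were not used here. Some listed genes are not reported here. The closing section gives the alternatives.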

Additional observations from a re-analysis of the deposited data

Results flagged for a closer look

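A further probe set, 213931_at, is annotated to both ID2B and ID2 and so took no part in the comparisons. It was looked at again because its signal in RECK was above that of the mock line: 38.1 in RECK/4NQ, 60.1 in RECK and 45.8 in Zeo. RECK was its highest array, as for the brighter ID2 probe set, while RECK was the lowest for the dimmer one.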

How the results depend on the processing

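FST remained the gene lower in RECK/4NQ than in Zeo under all 7 alternatives. In that comparison 1 gene was higher as reported, against 0 at a floor of the 60th percentile and 0 with probe sets averaged, and the same 2 settings gave 0 in place of 1 in RECK over Zeo; BMP2 was the gene lost. Averaging probe sets gave 1 lower gene (FST) in place of 0 in RECK/4NQ over RECK. Leaving out probe sets ending _x_at or _s_at, 12 of the 21, left ID1, ID2, ID3 and BMP4 without a reading. It gave 1 lower gene (FST) in place of 0 both in RECK over Zeo and in RECK/4NQ over RECK. A 1.5-fold threshold gave 2 lower genes in RECK/4NQ over Zeo (ID4 and FST), 2 in RECK over Zeo (ID4 and FST) and, in RECK/4NQ over RECK, 2 lower (ID2 and FST) and 1 higher (BMP7). Of 177 log2 ratios under other settings, 161 moved by less than the local spread and 16 by more, and no gene past 2-fold changed sign. The log2 ratio of FST in RECK/4NQ over Zeo ranged from -2.36 to -1.22, and that of BMP2 from 0 to 2.74 with the floor. Subtracting the median of neighbouring genes was chosen after seeing the data. Over all genes, quantile normalisation gave 779 higher and 916 lower in RECK/4NQ over Zeo in place of 556 and 1410, and 1064 and 917 in RECK over Zeo in place of 796 and 1325. Lowering the floor to the 20th percentile made the counts 1413 and 2685 in RECK/4NQ over Zeo, 1697 and 2439 in RECK over Zeo and 1885 and 2318 in RECK/4NQ over RECK; at the 60th, 165 and 456, 328 and 524, and 381 and 468. Averaging gave 325 and 791, 529 and 787, and 505 and 711, and a 1.5-fold threshold 1560 and 3510, 1852 and 3631, and 2625 and 2695. Signal over background limits BMP2, BMP4, BMP7, GREM1 and ID4. No paired analysis was possible because each line has 1 array.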
